A study of Mus musculus with 6 samples.

Results

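Ion channel subunit genes were followed in the AtT-20 line, hormone-secreting corticotroph cells grown from a mouse pituitary tumour. The genes were taken by name, from every probe set with a single annotated symbol. Symbols starting with Kcn (potassium channels, without Kcnq1ot1) were taken. So were those starting with Cacna, Cacnb or Cacng, which are named as voltage-gated calcium channel subunits. Scn with a number and a or b (voltage-gated sodium channels) completed the list. Which channels or receptors the Cacng products join in these cells was not tested. This gave 246 probe sets for 118 genes, out of 45101 probe sets and 18193 genes with a single symbol. Potassium channel names accounted for 161 probe sets and 83 genes, calcium channel names for 55 and 24, and sodium channel names for 30 and 11. The cells of both groups received repeated doses of 20 nM siRNA over 8 days, directed at Dnmt1 (siDNMT1) or non-targeting (siNT). Each of 3 independent repeats gave 1 siDNMT1 and 1 siNT array, so n = 3 per group. All arrays come from the same tumour line, and cells without siRNA were not analysed here. The comparison asks which channel transcripts these excitable cells carry and whether their levels differ once Dnmt1, which maintains DNA methylation through cell division, is reduced.

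Voltage-gated calcium channels let calcium into corticotrophs during action potentials, and that calcium triggers the release of adrenocorticotropic hormone. Potassium channels set the resting potential and end the action potential; those opened by calcium, such as the large-conductance BK channel encoded by Kcnma1, shape the firing of pituitary cells. A pore-forming alpha subunit usually works with auxiliary subunits that change its gating or its delivery to the membrane. The KChIP proteins, among them the Kcnip3 product, do this for Kv4 channels, and the Kcnip3 product is also known as DREAM, a calcium-sensitive repressor of transcription.

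The deposited values are 1 linear signal per probe set and array, and they were brought here to a common median. They are called the scaled signal below. On its brightest probe set the targeted transcript, Dnmt1, read 541, 701 and 619 in siNT and 214, 142 and 301 in siDNMT1, so that 39.6%, 20.2% and 48.6% of the paired siNT signal remained in repeats 1 to 3. Of 8 corticotroph markers, 7 lay above background on all siNT arrays, Pomc and Tbx19 among them, and Avpr1b did not. The summed corticotroph signal was 10115 to 13722 on the siNT arrays and 8710.0 to 13710.0 on the siDNMT1 arrays, overlapping. Pomc (-0.01, -0.32 and -0.13 by repeat, on the log2 scale) and the receptor gene Crhr1 (-0.65, -0.14 and -0.28) were lower in siDNMT1 in 3 of 3 repeats. The other markers above background had both signs. These were Tbx19 (0.10, -0.18 and 0.14), Pitx1 (0.24, 0.19 and -0.05) and Pcsk1 (0.35, 0.46 and -0.58). Nr3c1 (0.29, -0.11 and -0.03) and Neurod1 (-0.29, -0.80 and 0.04) were the remaining ones. The detection calls of the arrays were not analysed here, so background was set from 44 olfactory receptor probe sets, whose genes are not known for a role in the pituitary. Their 95th percentile on the siNT arrays, a scaled signal of 35.8, is the background level below. Of the marker lists for other cells, 0 of 4 white blood cell genes, 1 of 6 fibroblast genes (Col1a2), 1 of 7 genes of other pituitary lineages (Lhb), 1 of 4 muscle genes (Ckm), 2 of 3 glial genes (Gfap and Mbp) and 2 of 6 neuronal genes (Map2 and Syp) were above it in siNT. The summed neuronal signal was 481 to 772 on the siNT arrays and 463 to 519 on the siDNMT1 arrays, with Gad1 and Slc17a6, markers of inhibitory and excitatory neurons, below background on every array. Syp read 353, 609 and 325 in siNT and 303, 353 and 289.9 in siDNMT1, and Map2 66.6, 79.3 and 55.3 against 66.1, 50.6 and 46.4, so both were lower in 3 of 3 repeats with overlapping groups. Rbfox3, which was not above background in siNT, went the other way, from 44.0, 29.0 and 29.5 to 55.9, 64.4 and 80.9. The summed signals of the other lists were 36.8 to 77.6 against 68.8 to 78.0 for white blood cells, 126 to 149 against 137 to 156 for fibroblasts, 133 to 240 against 145 to 235 for other pituitary lineages, 100 to 155 against 63.8 to 136 for muscle and 369 to 474 against 361 to 497 for glia, siNT first. Their part in the differences below was not tested.

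Because the siRNA acts on the DNA methylation enzyme, the windows before the annotated starts of the channel genes are shown for what methylation could act on, the CpG dinucleotide. Methylation itself was not analysed here. RefSeq starts in build GRCm38.p6 were matched by symbol for 90 of the 118 genes, taking the start listed first. The motif searched was CG, which reads the same on both strands. In the 250 bases before the start the channel genes held a median of 8 CpG (range 0 to 43), against 6 over 27018 genes. At least 1 CpG was present in 96.7% of the channel genes and 91.8% of all genes, and at least 10 in 43.3% and 38.2%. The median was 9 for the 28 matched genes above background in siNT and 8 for the 62 others. The windows of 4 genes with lower siDNMT1 values are printed 5′ to 3′ with each CpG in capitals, to show how far they differ in CpG content.
Kcnma1 (chr14:24004206-24004455, minus strand): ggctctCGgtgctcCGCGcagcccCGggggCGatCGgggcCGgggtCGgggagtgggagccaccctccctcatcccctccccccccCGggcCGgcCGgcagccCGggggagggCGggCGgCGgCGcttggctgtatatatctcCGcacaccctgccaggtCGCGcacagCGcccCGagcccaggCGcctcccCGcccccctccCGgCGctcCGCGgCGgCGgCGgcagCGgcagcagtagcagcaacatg
Kcnip3 (chr2:127522095-127522344, minus strand): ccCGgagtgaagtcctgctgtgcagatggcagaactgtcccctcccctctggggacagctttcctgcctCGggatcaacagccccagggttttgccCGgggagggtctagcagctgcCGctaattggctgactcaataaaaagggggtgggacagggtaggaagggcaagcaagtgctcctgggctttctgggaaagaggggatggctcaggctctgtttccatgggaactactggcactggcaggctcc
Kcnk1 (chr8:125994852-125995101, plus strand): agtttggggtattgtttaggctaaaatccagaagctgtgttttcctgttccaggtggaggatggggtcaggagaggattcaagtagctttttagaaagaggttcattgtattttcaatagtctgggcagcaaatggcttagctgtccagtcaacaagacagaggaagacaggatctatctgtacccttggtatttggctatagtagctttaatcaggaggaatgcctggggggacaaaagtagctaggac
Kcnab2 (chr4:152477550-152477799, minus strand): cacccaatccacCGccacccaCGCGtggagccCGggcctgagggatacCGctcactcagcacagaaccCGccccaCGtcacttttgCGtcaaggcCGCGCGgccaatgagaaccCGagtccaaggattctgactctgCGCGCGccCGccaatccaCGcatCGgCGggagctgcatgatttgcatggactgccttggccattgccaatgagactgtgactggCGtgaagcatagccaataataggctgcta
The Kcnma1 window held 31 CpG, a count that 4.93% of all genes reached. The Kcnab2 window held 20 (17.7%) and the Kcnip3 window 4 (61.9%). Kcnk1 had 0 in the window before its single listed start, like 8.25% of all genes. Kcnip3 and Kcnab2 each had 3 listed starts, with 2 to 23 and 3 to 20 CpG, so their counts depend on the start taken. The windows of these 4 genes thus ranged from CpG-rich to CpG-free.

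Of the 118 channel genes, 36 (30.5%) had a probe set above the background level on all 3 siNT arrays, against 9432 of 18193 (51.8%) over all genes. Levels of different probe sets are not comparable with each other, so each is read against the background level alone. Among the pore-forming genes of classical voltage-gated potassium channels 3 of 22 were above it. These were Kcnc1, of the fast Kv3 type, with siNT signals of 51.6, 105 and 68.2, and the Kv4 genes Kcnd1 with 54.0, 59.4 and 48.7 and Kcnd3 with 52.9, 54.1 and 36.7. With background set at the 99th percentile instead, none of Kcnc1, Kcnd1 and Kcnd3 was above it. The third Kv4 gene, Kcnd2, had 4 probe sets, all too dim to be tested. Of the ether-a-go-go genes 4 of 6 were above background: Kcnh1 (79.2 ± 17.0), Kcnh2, which encodes the ERG potassium channel (143 ± 6.19), Kcnh3 (186 ± 51.0) and Kcnh7 (48.2 ± 9.94), as mean scaled signal in siNT ± SD, n = 3. Of 3 Kcnq genes it was Kcnq1, with 141 ± 30.9.

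Two-pore background channels gave the highest share among the families with more than 6 genes, with 6 of 12 Kcnk genes above background. Kcnk1, encoding TWIK-1, had the brightest channel probe set of the array set, with siNT signals of 1649.9, 2003 and 1608. Kcnk3, encoding the acid-sensitive TASK-1, had 141, 217 and 170.0, Kcnk2, encoding the stretch-sensitive TREK-1, 118, 174 and 167, and Kcnk16 200.3, 266 and 191. Kcnk7 and Kcnk4 were nearer the level, at 62.8 ± 5.38 and 38.8 ± 2.09 (SD, n = 3). Among inward rectifiers 4 of 15 passed: Kcnj11, the pore of the ATP-sensitive channel, the G protein-gated genes Kcnj3 (118 ± 21.3) and Kcnj6 (51.6 ± 4.54), and Kcnj13 (47.3 ± 9.13; SD, n = 3). Abcc8, which encodes the sulphonylurea receptor that joins the Kcnj11 product, had siNT signals of 629, 861 and 489, while the alternative receptor gene Abcc9 stayed below 15 on every array.

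Of 11 genes named Kcnma, Kcnmb, Kcnn, Kcnt or Kcnu, which hold the channels opened by calcium or sodium, their pH-sensitive relative Kcnu1 and the BK beta subunits, 4 were above background: Kcnma1 (83.8 ± 11.9), Kcnn1 of the small-conductance type (49.8 ± 7.95), the sodium-activated Kcnt1 (145 ± 15.6) and Kcnu1, best known from sperm (95.1 ± 33.0; SD, n = 3). None of the BK beta subunit genes Kcnmb1, Kcnmb2 and Kcnmb4 reached it on all siNT arrays. Of 12 other auxiliary genes Kcnip3, Kcnab2 and Kcne2 did. The remaining KChIP genes Kcnip1, Kcnip2 and Kcnip4 did not, although single arrays of Kcnip1 and Kcnip2 exceeded the level. Both antisense transcripts of Kcnmb4 were below it.

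Among calcium channel genes the L-type pores Cacna1c (87.1 ± 16.3), Cacna1d (77.3 ± 11.3) and Cacna1f (49.0 ± 10.1) and the N-type pore Cacna1b (70.9 ± 5.63) were above background, 4 of 9 pore genes (SD, n = 3). The T-type pores Cacna1g and Cacna1h were not, nor was Cacna1e. Cacna2d1 (189 ± 21.8) and Cacna2d2 (254 ± 71.7), whose products raise the number of channels at the membrane, made up 2 of 4 alpha2delta genes, and Cacng4, Cacng5 and Cacng7 made up 3 of 8 gamma genes. Of the beta subunit genes measured (Cacnb1, Cacnb2 and Cacnb4) 0 of 3 were above it in siNT. Cacnb1 missed it on siNT array 1 only, with 33.3, 63.6 and 48.3, and read 44.2, 64.8 and 42.8 in siDNMT1. With background set at the 90th percentile Cacnb1 was counted as above it. Of sodium channel genes, 1 of 8 pore genes, Scn11a (60.9 ± 23.0), and 1 of 3 beta genes, Scn2b (41.8 ± 1.29), were above background, and 21 of 24 pore probe sets were too dim to be tested. With background set at the 99th percentile, neither Scn11a nor Scn2b was above it.

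**Figure D1:**
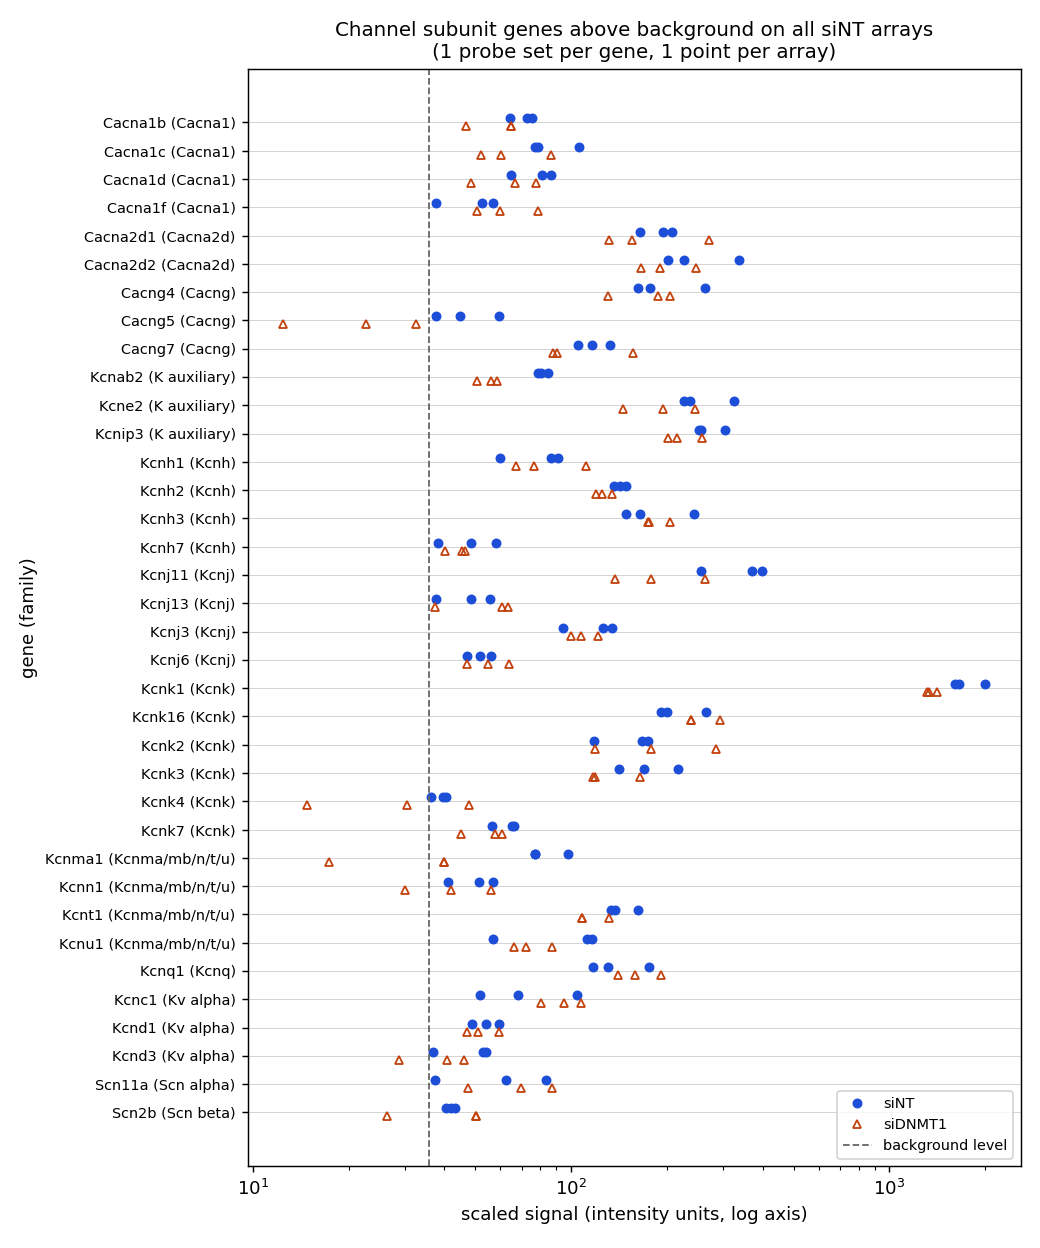
Scaled signal (log axis) of the 36 channel genes above background on all siNT arrays, 1 probe set per gene, with 3 siNT points (filled circles) and 3 siDNMT1 points (open triangles) each and the background level of 35.8 as a dashed line. The genes and the probe set drawn for each were chosen by their siNT signals, so the plot shows levels, and its siDNMT1 points are no comparison of the groups.

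The comparison of siDNMT1 with siNT covered the 27022 probe sets whose mean scaled signal reached 16.8, of which 114 belonged to 75 channel genes. The other 132 channel probe sets were too dim. A difference is siDNMT1 minus siNT on the log2(scaled signal + 5.29) scale, on which the pseudocount shrinks differences between low signals. No channel probe set passed an adjusted p of 0.05 in limma (0 of 27022 over the array, 0%), and 0 did with the repeat number as a block (23 over the array, 0.0851%). The smallest adjusted p was 0.724, for Kcnma1, without the block and 0.0701, for Kcnip3, with it. The targeted Dnmt1 transcript itself missed the threshold without the block (limma adjusted p = 0.151 on each of its probe sets). With the block it passed (limma adjusted p = 0.0141 to 0.0211). A miss in the fit without the block thus does not show that a level was unchanged. An exact permutation test of 3 arrays against 3 cannot go below a two-sided p of 0.1.

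Among the tested channel probe sets, which all missed the threshold, those with the smallest p were lower in siDNMT1. At an unadjusted limma p under 0.05, 9 of the 114 (7.89%) were lower, against 2.47% of all tested probe sets, and 0 were higher, against 1.32%. Of the 9, those of Cacna2d1, Cacng5 and Cacng7 were below the background level on every siDNMT1 array. That of Cacng7 passed the filter through its siNT arrays (mean 30.9, against 12.7 in siDNMT1). With the block 12 (10.5%) were lower and 1 (0.877%) higher, against 5.39% and 2.45%. The 2 groups of arrays did not overlap for 10 probe sets, all lower (8.77%, against 5.78% over the array), and for 0 in the other direction (against 2.96%). Of the 10, that of Kcnn3, named after its values were seen, passed the filter through its siNT arrays (mean 23.8, against 12.9 in siDNMT1). Lower values in all 3 repeats were found for 28 (24.6%, against 19.2%) and higher values for 9 (7.89%, against 10.1%). By sign alone the channel probe sets were close to the whole array: 72 of 114 (63.2%) had lower values, against 59.2%, and the other 42 higher ones, against 40.8%. The median difference was -0.13 against -0.06. With 2% trimmed mean and quantile scaling the lower share was 59.1% and 63.2%, against 49.7% and 51.1% of all tested probe sets. The median by repeat was -0.00054, -0.22 and -0.14 for channel probe sets and 0.02, -0.11 and -0.07 for all. The count of 9 was 3 to 13 over 20 alternative settings, with 3 without any scaling and 4 without siNT array 2. The count of 0 higher depended on the filter and was 7 without it. With the block, Kcnip3, Kcnma1 and Kcnj11 passed an adjusted p of 0.05 in limma when repeat 1 was left out, and Kcnip3 when repeat 3 was left out. The RNA was taken in bulk, so fewer cells with a transcript and less of it per cell cannot be told apart.

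**Figure D2:**
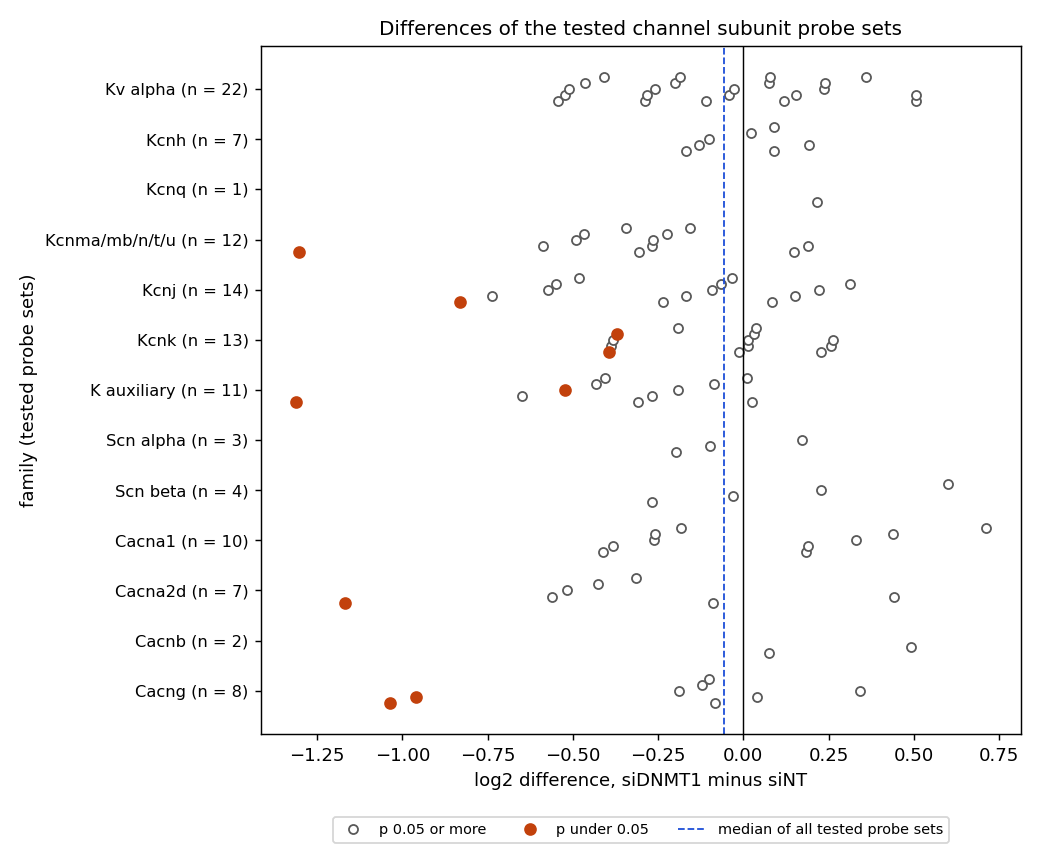
Difference (log2, siDNMT1 minus siNT) of each of the 114 tested channel probe sets by family, with filled points for an unadjusted limma p under 0.05 and the median of all 27022 tested probe sets as a dashed line. The 9 filled points all lie below 0 and come from 6 of the 13 families.

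Kcnma1 had the smallest p of the channel genes. Its brightest probe set had scaled signals of 76.8, 77.0 and 97.6 on the siNT arrays of repeats 1 to 3 and 39.9, 39.8 and 17.4 on the siDNMT1 arrays. Every siDNMT1 array was below every siNT array, and siDNMT1 array 3 lay under the background level. The difference was -1.30 (SE 0.30, limma adjusted p = 0.724), with -0.86, -0.87 and -2.18 in repeats 1 to 3. In the limma fit with the block its adjusted p was 0.175. A second probe set read 29.9, 46.0 and 36.1 against 30.9, 39.6 and 21.1 and differed by -0.27 (SE 0.30), with the groups overlapping. The other 3 Kcnma1 probe sets were too dim to be tested. The BK beta subunit genes lay near the filter: the tested probe sets of Kcnmb1, Kcnmb2 (a pair) and Kcnmb4 had mean siNT signals of 26.6, 25.6, 22.4 and 17.1, and overlapped between the groups.

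Kcnip3 gave the smallest p of the channel genes in the fit with the block, on 1 of its 2 probe sets. That probe set, the dimmer one, read 207, 353 and 132 in siNT and 134, 115 and 35.4 in siDNMT1. The levels varied widely between repeats and overlapped, siDNMT1 array 1 lying just above siNT array 3, but each siDNMT1 array was below the siNT array of its own repeat. The difference was -1.31 (SE 0.45) without the block, with -0.60, -1.58 and -1.75 by repeat, and its SE with the block was 0.22 (limma adjusted p = 0.0701 with the block). The brighter probe set read 253, 256 and 305 in siNT and 201, 215 and 259 in siDNMT1, a difference of -0.27 (SE 0.18). It too was lower in 3 of 3 repeats, by a smaller and more even amount (-0.32, -0.25 and -0.23). Of the other KChIP genes, Kcnip2 differed by -0.65 (SE 0.41) on its brightest probe set, from 38.9 ± 17.7 in siNT to 22.8 ± 10.2 in siDNMT1 (SD, n = 3).

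Kcnj11, the pore of the ATP-sensitive potassium channel, was lower in 3 of 3 repeats on both of its probe sets. The brighter read 371, 256 and 398 in siNT and 264, 138 and 178 in siDNMT1, with siDNMT1 array 1 just above siNT array 2. Its difference was -0.83 (SE 0.25), or -0.48, -0.87 and -1.14 by repeat, with a limma adjusted p of 1.00 without the block and 0.123 with it. The dimmer probe set read 37.7, 35.9 and 29.7 against 20.2, 16.6 and 28.4 and did not overlap, at -0.57 (SE 0.31). Its receptor subunit gene Abcc8 was at -0.14 (SE 0.22), with siDNMT1 signals of 623, 676 and 467.

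**Figure D3:**
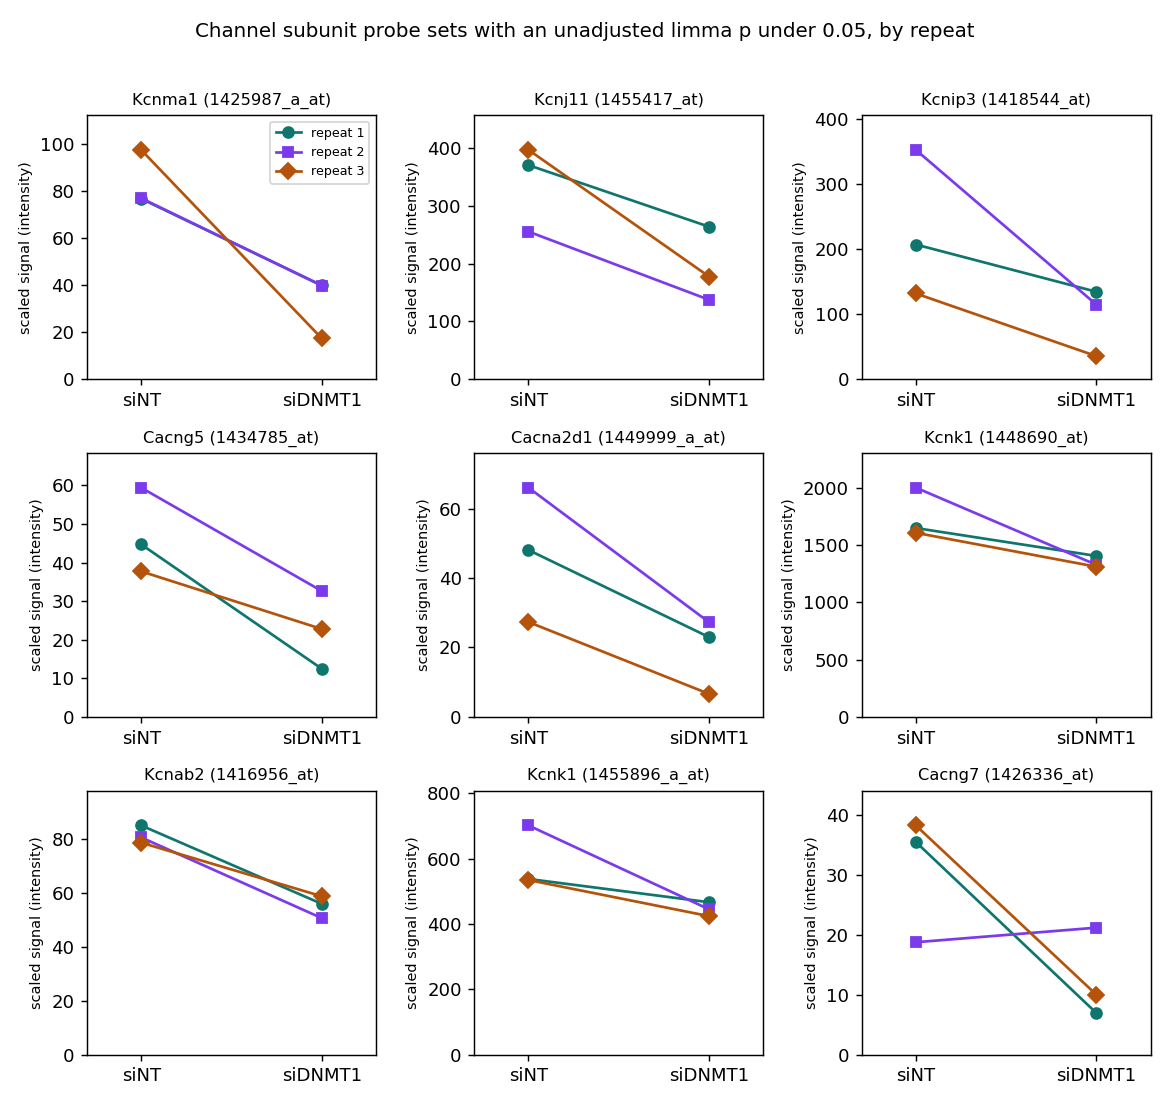
Scaled signal (linear axis from 0) on the siNT and siDNMT1 arrays of the 9 channel probe sets with an unadjusted limma p under 0.05, with 1 line per repeat. In each repeat the siDNMT1 point is the lower one, except in repeat 2 of Cacng7, which read 18.8 and 21.2.

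Kcnk1, the TWIK-1 gene, gave nearly the same difference on both of its probe sets. The brighter read 1649.9, 2003 and 1608 in siNT and 1406, 1329 and 1312 in siDNMT1, and the other 538, 702 and 535 and 467, 445 and 424. Neither overlapped between the groups. The differences were small, -0.37 (SE 0.14) and -0.39 (SE 0.16), and present in 3 of 3 repeats. Of the remaining two-pore genes, Kcnk3 differed by -0.38 (SE 0.22) with opposite signs in repeats 1 and 2 (0.21, -0.84 and -0.52), while Kcnk16, Kcnk2 and Kcnk10 were higher by 0.23, 0.26 and 0.26 (SE 0.19, 0.29 and 0.34). The value for Kcnk2 came mostly from repeat 2 (0.01, 0.70 and 0.08) and turned to -0.05 without siDNMT1 array 2.

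Among auxiliary potassium channel genes Kcnab2, encoding a Kv beta subunit, read 84.9, 80.5 and 78.5 in siNT and 55.9, 50.6 and 58.7 in siDNMT1. The groups lay clearly apart and were tight, at 81.3 ± 3.27 and 55.1 ± 4.10 (SD, n = 3). The difference was -0.52 (SE 0.20), or -0.56, -0.62 and -0.39 by repeat. Its other probe set was too dim to be tested. Kcne2, a small membrane partner of Kcnh2 and Kcnq1, read 236, 326 and 226 against 194, 244 and 146 and differed by -0.43 (SE 0.22), lower in 3 of 3 repeats with overlapping groups. Of these partners Kcnh2 read 143, 149 and 137 against 120.2, 125 and 135, parted by a narrow margin, and Kcnq1 131, 176 and 117 against 192, 159 and 141, overlapping. Of 11 tested auxiliary probe sets, which came from 7 genes, 9 had lower values, with a median of -0.31. Over all tested probe sets 59.2% were lower, with a median of -0.06. Among the lower auxiliary ones, a Kcnip2 probe set passed the filter through its siNT arrays (mean 20.0, against 15.6 in siDNMT1).

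For the other potassium channels the lower values were less even. Of 12 tested probe sets from 8 of the Kcnma, Kcnmb, Kcnn, Kcnt and Kcnu genes 10 were lower, against 59.2% over the array. Their median was -0.29, against -0.06. Among the lower ones, probe sets of Kcnn3 and Kcnt1 passed the filter through their siNT arrays. Their means were 23.8 and 23.2 in siNT, against 12.9 and 15.1 in siDNMT1, so lower values were favoured by the filter. Besides Kcnma1 the lower ones included Kcnt1, whose brightest probe set read 134, 138 and 163 against 108, 108 and 131. Its difference of -0.31 (SE 0.19) was nearly the same in each repeat (-0.29, -0.33 and -0.30). The groups of Kcnt1 did not overlap on that probe set, and its 2 dimmer probe sets overlapped and had opposite signs. The one above background on all arrays of both groups was higher, at 0.19 (SE 0.24). The other, at -0.47 (SE 0.43), was not above background in either group. Kcnj9, a G protein-gated rectifier with siNT signals of 39.6, 65.8 and 28.3 and siDNMT1 signals of 16.2, 33.3 and 22.5, differed by -0.74 (SE 0.35). Classical voltage-gated pores were split, 13 of 22 tested probe sets lower and 9 higher, with a median of -0.08. Kcnc1 was higher by 0.36 (SE 0.26), from 51.6, 105 and 68.2 to 95.3, 107 and 80.3, with the group ranges overlapping. Kcnv2, Kcna7 and Kcna4 were higher by 0.51, 0.51 and 0.24 (SE 0.43, 0.69 and 0.38), the inward rectifier Kcnj15 by 0.22 (SE 0.31) and Kcnq1 by 0.22 (SE 0.21). Kcnv2, Kcna7, Kcna4 and Kcnj15 had mean siNT signals below the background level, and none of these higher values exceeded 2 SE. Kcnv2 passed the filter through its siDNMT1 arrays (mean 20.4, against 13.7 in siNT).

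Of the genes with calcium channel names, those with the smallest p were named as auxiliary subunits. Each had it on a probe set that was below background on every siDNMT1 array. Cacna2d1 read 48.1, 66.0 and 27.3 in siNT and 23.0, 27.3 and 6.63 in siDNMT1 on its dimmest tested probe set. The groups were separated by a narrow margin, and the difference was -1.17 (SE 0.43), lower in 3 of 3 repeats. A second probe set differed by -0.56 (SE 0.57) with -0.78, -0.89 and -0.01 by repeat, and the brightest by -0.09 (SE 0.25) with overlapping signals of 165, 195 and 208 and 131, 270.3 and 155. Cacng5, named after its values were seen, read 44.7, 59.4 and 37.7 against 12.5, 32.6 and 22.8 on 1 probe set, a difference of -0.96 (SE 0.34). That probe set was above background on all siNT arrays. Cacng5 differed by 0.04 (SE 0.25) on its other tested probe set, which was not. Cacng7 read 35.6, 18.8 and 38.3 against 6.97, 21.2 and 10.03 on its dimmer probe set, a difference of -1.04 (SE 0.43) with a higher siDNMT1 signal in repeat 2. It passed the filter on low signals through its siNT arrays, since its siDNMT1 mean was 12.7. On these probe sets of Cacna2d1, Cacng5 and Cacng7 every siDNMT1 array lay below the background level, where a log2 difference is uncertain in size. The brighter probe set of Cacng7 was at -0.12 (SE 0.24).

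The pore genes of calcium channels were divided evenly, with 5 of 10 tested probe sets lower and 5 higher and a median of 0.00085. Cacna1c read 78.6, 106 and 76.8 against 52.2, 86.5 and 60.1, a difference of -0.38 (SE 0.24) that was negative in 3 of 3 repeats. Cacna1f was higher by 0.33 (SE 0.25), from 52.6, 56.8 and 37.5 to 78.8, 50.7 and 59.7, with repeat 2 in the other direction. The only channel probe set that was higher at an unadjusted p under 0.05 with the block belonged to Cacna1a, the P/Q-type pore gene, which is named here after its values were seen. It read 15.4, 51.1 and 14.1 against 34.6, 51.8 and 38.4, so that repeat 2 hardly differed. Cacna2d2 differed by -0.32 (SE 0.23), mostly in repeat 2 (-0.08, -0.99 and 0.13). Cacna2d4 differed by 0.44 (SE 0.27) on its brightest probe set, from 33.2, 28.8 and 40.4 to 63.6, 43.0 and 39.9. Its other tested probe set went the other way, at -0.43 (SE 0.37), or -0.87, -0.27 and -0.14 by repeat. That probe set was not above background in either group and passed the filter through its siNT arrays (mean 23.6, against 16.6 in siDNMT1). Of the 7 tested sodium channel probe sets 4 were lower and 3 higher, with a median of -0.03. None was at an unadjusted p under 0.05 in either fit. Scn3b, a beta subunit gene, was higher by 0.23 (SE 0.30) at siNT signals of 25.7, 23.4 and 24.5, below the background level.

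Among the 9 probe sets, 7 genes had at least 2 tested probe sets. These genes entered by their lower probe set, so a smaller difference on another is favoured by the choice, and the values are a description. Kcnma1 and Kcnip3 had -1.30 and -1.31 on 1 probe set and -0.27 on the other. For Cacna2d1, Cacng5 and Cacng7 the lower of the probe sets was the one below background on the siDNMT1 arrays. Kcnk1 gave nearly equal values on both probe sets and Kcnj11 gave -0.83 and -0.57. Probe-level values and the positions of the probes on the transcripts were not analysed here, so which transcript forms each probe set reads was not tested.

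**Figure D4:**
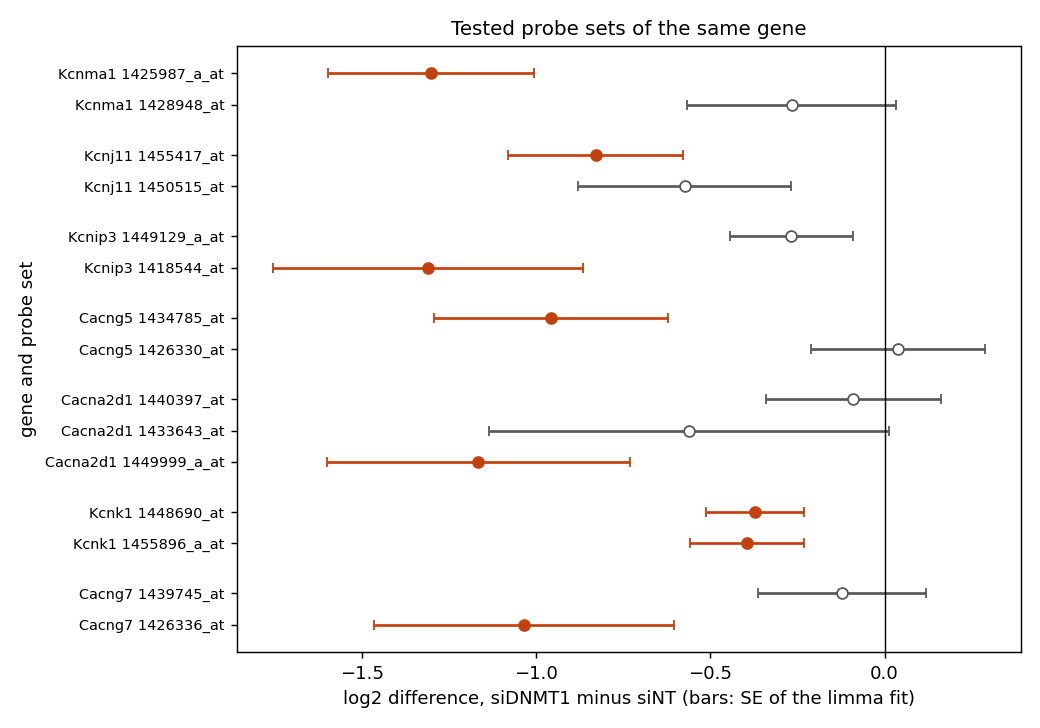
Difference (log2, siDNMT1 minus siNT; bars, SE of the limma fit) of each tested probe set of the 7 genes with at least 2 tested probe sets and at least 1 at an unadjusted p under 0.05 (filled). Values of Kcnk1 coincide at -0.37 and -0.39, whereas those of Kcnma1 lie at -1.30 and -0.27.

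Genes whose products work with the channels but carry other names were read from a list of 57. Of 40 tested genes 0 passed an adjusted p of 0.05 in limma with or without the block, while Slc8a3 did with the block when repeat 1 or repeat 3 was left out. On their brightest probe sets 31 had lower and 9 higher values, against 59.2% and 40.8% of all tested probe sets. Their median was -0.15, against -0.06 over all tested probe sets. At an unadjusted limma p under 0.05, 2 of these 40 were lower and 0 higher. Of all 79 tested partner probe sets 4 were lower and 0 higher at that p, against 2.47% and 1.32% over the array. Slc8a3, a sodium-calcium exchanger gene, read 101, 215 and 109 in siNT and 76.3, 83.8 and 50.8 in siDNMT1. Each siDNMT1 array was below each siNT array, a difference of -0.90 (SE 0.30). Its limma adjusted p was 0.9997 without the block and 0.207 with it. The same separation was seen for Fgf12, encoding a sodium channel-binding fibroblast growth factor homologue, at 96.2, 119 and 105 against 67.7, 81.0 and 57.2, a difference of -0.61 (SE 0.21). Atp2b2, a plasma membrane calcium pump gene, differed by -0.68 (SE 0.23) on its dimmer tested probe set and by -0.17 on the brightest. Camk2a, encoding a calcium- and calmodulin-dependent kinase, read 29.4, 26.0 and 41.7 against 19.8, 9.53 and 17.7 on 1 probe set that was not above background in either group and passed the filter through its siNT arrays.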

How the data were processed

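Transcript levels were measured in 6 arrays of AtT-20 cells, 3 siDNMT1 and 3 siNT, grouped by the labels. Each deposited value is a linear intensity of 1 probe set on 1 array, made by the authors with GCOS, per the submitters' processing notes; its version, settings and scaling target are not stated there. Deposited array medians were 19.8 to 36.3, so arrays were brought here to 1 common median on the log2 scale. The pseudocount, 5.29, is the 20th percentile of all deposited values. Probe sets with a mean scaled signal below the 40th percentile (16.8) were left out, and 27022 of 45037 were tested, 64 control probe sets aside. Names came from a platform annotation: 34945 probe sets had 1 symbol, 932 several and 9160 none. Groups were compared with limma 3.58.1 in R 4.3.3 (lmFit, eBayes with trend, two-sided, Benjamini-Hochberg over all tested probe sets), without and, as an alternative, with the repeat number as a block. After subtraction of the group means, arrays sharing a repeat number correlated at 0.173, 0.231 and 0.257 and other pairs at -0.179 to -0.0283, so the numbers pair the arrays. The SE and unadjusted p values are from the fit without the block, which leaves this pairing out, unless the block is named. The fits were checked on simulated data. The members, gene lists and tests were chosen with earlier results of these data known. Named were Kcnma1 and Kcnip3, the 12 genes in each direction with the smallest p of their brightest probe set, up to 6 genes per family above background, and 4 partner genes. Only 3 arrays per group limit the precision.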

Additional observations from a re-analysis of the deposited data

How the results depend on the processing

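The counts of channel probe sets and partner genes and the median difference were recomputed under 20 alternatives to the scaling, pseudocount, filter, variance prior, block, probe sets and arrays. Named differences had 14 (Kcnv2) to 20, since dim probe sets left the test under some of them, and the count above background had 10. The number of channel probe sets past an adjusted p of 0.05 in limma stayed at 0 except when a repeat was left out of the fit with the replicate block (0 to 3), and that of partner genes likewise (0 to 1). The adjusted p over the alternatives was 0.000377 to 1 for the dimmer Kcnip3 probe set, 0.0394 to 1 for the brighter Kcnma1 one, 0.0467 to 1 for the brighter Kcnj11 one and 0.0385 to 1 for Slc8a3. The median channel difference was -0.19 to -0.05. The count of lower channel probe sets at an unadjusted p under 0.05, which was chosen after seeing the data, was 12 with the replicate block, 3 without scaling, 4 to 11 with 1 array left out and up to 13 with 1 repeat left out of the block. Higher ones numbered 7 without a filter. Channel genes above background in siNT numbered 24 to 37. With background at the 99th percentile, Kcnc1, Kcnd1, Kcnd3, Kcnh7, Kcnj6, Kcnj13, Kcnk4, Kcnn1, Cacna1f, Cacng5, Scn11a and Scn2b were no longer counted.

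Of 40 named differences 32 kept their sign under the alternatives that left their probe set in the test. With 1 array left out, the brightest probe set of Cacna2d1 ranged from -0.39 to 0.12, that of Cacng5 from -0.13 to 0.17 and that of Cacng7 from -0.38 to 0.017. Kcnk2 ranged from -0.053 to 0.56, Kcna7 from -0.13 to 1.22 and Abcc8 from -0.34 to 0.067. With the block and without repeat 1, the brightest probe set of Cacna2d1 was at 0.026, that of Cacng5 at -0.054 and Kcnj15 at -0.059. Without repeat 2, Cacng7 was at 0.080 and Cacna2d2 at 0.023, and without repeat 3 Cacna2d1 was at 0.070. The cause was not tested. Signals near background limit the dim probe sets, and 132 of 246 channel probe sets were not tested.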
